A study of Bos indicus with 5 samples.

Results

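Oviductin (OVGP1) and 5 membrane mucins (MUC1, MUC4, MUC15, MUC16 and MUC20) were followed in the ampulla, the wide middle stretch of the oviduct where eggs are fertilized. They were taken by their symbols from a table of 24616 genes, and each of the 6 symbols had 1 entry. RNA sequencing had been run on ampulla tissue of 5 healthy, multiparous Nelore cows (Bos indicus), 1 library per cow. All cows received an intravaginal progesterone device with estradiol benzoate, prostaglandin F2 alpha analog at device removal and again some hours later, and a GnRH agonist to induce ovulation. The LF/LCL cows (n = 2), with a large follicle and then a large corpus luteum, had the device taken out 42 h ahead of GnRH, and they had been given an extra prostaglandin injection at its insertion. The SF/SCL cows (n = 3), with a small follicle and corpus luteum, had it taken out 30 h ahead of GnRH. Tissue was collected on day 4 from the side that had ovulated. The sequenced cows were those ranked highest in LF/LCL and lowest in SF/SCL for follicle, corpus luteum and hormone measures, so that they were picked as extremes of each group. The study discarded a further LF/LCL library for a low number of reads. The pieces held the whole thickness of the wall, and in such bulk tissue fewer cells of a type and less RNA per cell cannot be told apart.

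Oviductin is the glycoprotein that the non-ciliated secretory cells of the oviduct release into the lumen, where it binds the zona pellucida of the egg and the surface of sperm and embryos. It is built on a chitinase-like domain followed by a mucin-like tail that carries O-linked sugars. Membrane mucins are anchored in the apical surface of epithelial cells. Their long extracellular parts, rich in serine and threonine, carry the same kind of sugar and make up the glycocalyx that hydrates the epithelium and limits adhesion. In the reproductive tract they are best known from the uterus, where their loss or shedding accompanies attachment of the embryo.

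Values are normalized reads, which are the reads of a gene divided by a size factor per library. The libraries held from 13418278 to 19592174 reads assigned to genes, and 100% of the nonzero values gave whole reads within 0.05 of a read. Markers of oviduct epithelium were present, and none that tell the ampulla from the isthmus were used. FOXJ1, the master regulator of motile cilia, had 8481 to 12698 normalized reads, and PAX8, a transcription factor of the secretory cells, had 716 to 1280. Other listed markers had few reads, with 0 in 4 libraries for PIFO, 1 to 11 for LCN2, and 0 to 3 in 4 of the 5 libraries for CRISP3. Transcript lengths were not used here, so levels are compared between libraries and not between genes.

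With limma on log2(value + 1), 0 of the 6 genes had an adjusted p under 0.05 over the 15815 genes tested, where 0.0% of all genes did. All 6 passed the filter on low values, a mean over 5. The picture differed between the members. OVGP1 lay close together in the 5 libraries, MUC16 and MUC20 were higher in every SF/SCL library than in any LF/LCL library, MUC1 leaned the same way with overlap, MUC4 spread mainly between the 2 LF/LCL cows, and MUC15 had few reads. An unadjusted p under 0.05 was found for 2 of the 6, MUC16 and MUC20, against 11.5% of all genes tested. Both were higher in SF/SCL, as were 5.86% of all genes, while 0 of the 6 and 5.64% of all genes were higher in LF/LCL at that p. The groups did not overlap for the same 2 of 6, against 30.1% of all genes tested (15.1% with SF/SCL higher), so that the share of members is close to that of genes in general. The median log2 fold change of the 6, LF/LCL minus SF/SCL, was -0.29, and that of all genes tested was 0.005. With 2 against 3 cows an exact permutation test of a single gene cannot reach 0.05, and p-values are from the fit across all genes.

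**Figure D1:**
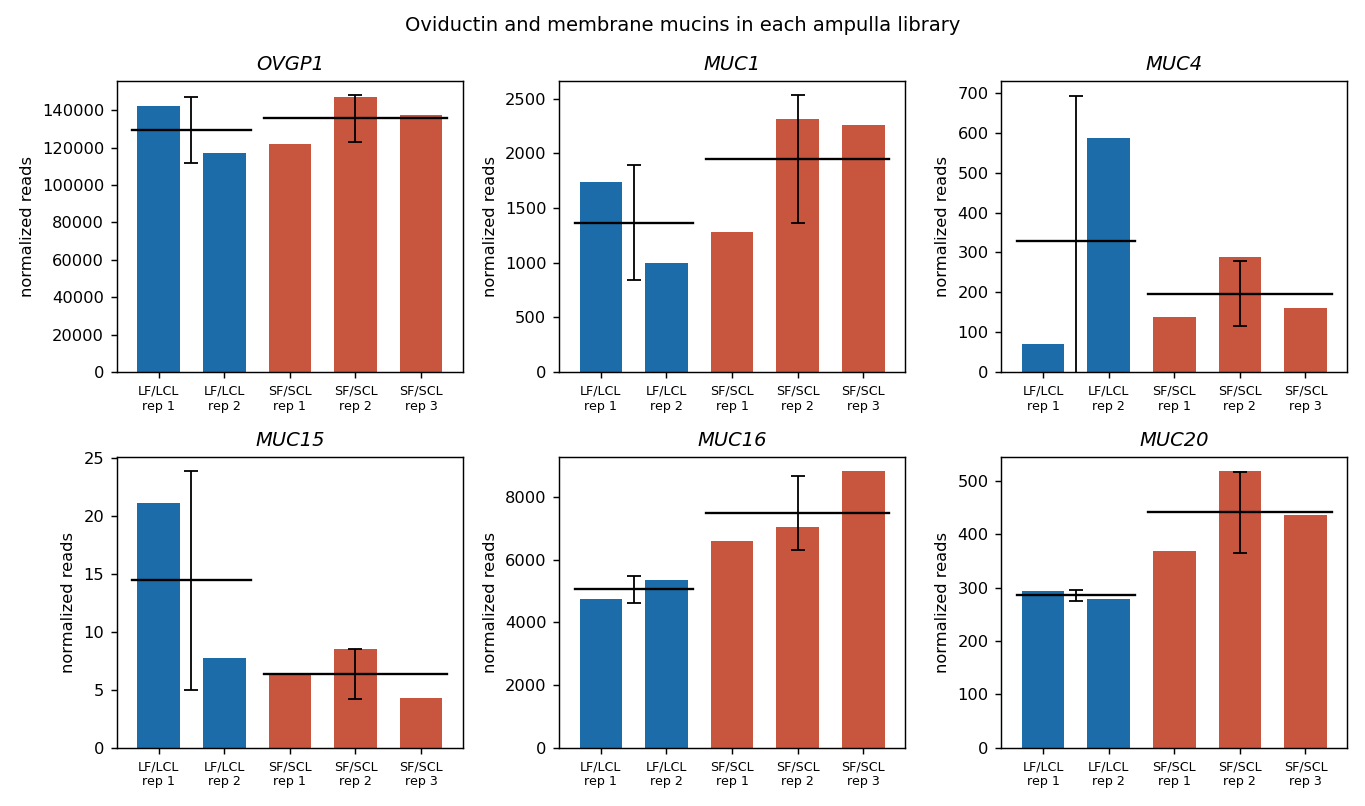
Normalized reads (vertical axes, linear from 0, each with its own scale) of the 6 genes in the 5 libraries, LF/LCL in blue and SF/SCL in red. Horizontal lines are group means and error bars the SD (n = 2 and n = 3, the LF/LCL bar of MUC4 is cut off at 0). MUC16 and MUC20 are higher in all 3 SF/SCL libraries, OVGP1 is nearly level, and MUC4 runs from 69.2 to 587 within LF/LCL.

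OVGP1 (ENSBTAG00000005973) had 142113 and 117179 normalized reads in LF/LCL replicates 1 and 2. It had 122187, 147247 and 137422 in SF/SCL replicates 1, 2 and 3. The lowest and the highest library differed by 1.26 times, and each group held both a lower and a higher library, so that the groups overlapped. The means were 129646 ± 17631 (SD, n = 2) in LF/LCL against 135618 ± 12627 (SD, n = 3) in SF/SCL. The log2 fold change was -0.07 ± 0.15 (SE), with a 95% interval from -0.42 to 0.29 and a limma adjusted p of 0.904. A difference in either direction within that interval is not excluded by these libraries.

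OVGP1 transcripts made up 0.826% ± 0.109 (SD, n = 2) of all reads assigned to genes in LF/LCL against 0.886% ± 0.0866 (SD, n = 3) in SF/SCL. The lowest share, in LF/LCL replicate 2, was 0.749% (95% Wilson interval 0.744 to 0.753), and the highest, in SF/SCL replicate 2, was 0.967% (0.963 to 0.971). These intervals cover counting error only, and they are far narrower than the spread between cows. By reads alone, without regard to length, OVGP1 ranked 1 among all genes in 4 of the 5 libraries and ranked 2 in LF/LCL replicate 2, where RARRES1 had 132249 reads against 121062. Its SD within groups was 0.159 on the log2 scale, and 65.4% of all genes tested had a larger one.

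MUC16 (ENSBTAG00000037693), the large mucin that carries the CA-125 antigen, had 4740.3 and 5357 normalized reads in LF/LCL replicates 1 and 2. It had 6576, 7039.5 and 8837 in SF/SCL replicates 1, 2 and 3. Every SF/SCL library was above both LF/LCL libraries. The means were 5048 ± 436 (SD, n = 2) and 7484 ± 1194 (SD, n = 3), and SF/SCL was 1.48 times LF/LCL. The log2 fold change was -0.56 ± 0.16 (SE), with a 95% interval from -0.94 to -0.18, an unadjusted p of 0.0108 and a limma adjusted p of 0.312. With DESeq2 on the recovered reads the adjusted p was 0.0679, in a test that called 2.91% of all genes. Without LF/LCL replicate 1 the unadjusted p was 0.0659.

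MUC20 (ENSBTAG00000032819), a small membrane mucin known to bind the hepatocyte growth factor receptor MET, had 293 and 279 normalized reads in LF/LCL replicates 1 and 2. It had 368, 519 and 437 in SF/SCL replicates 1, 2 and 3. Here too the groups were apart, and the LF/LCL libraries lay within 1.05 times of each other. The means were 286 ± 10.2 (SD, n = 2) and 441 ± 75.6 (SD, n = 3), with SF/SCL at 1.54 times LF/LCL. The log2 fold change was -0.61 ± 0.18 (SE), with a 95% interval from -1.05 to -0.17, an unadjusted p of 0.0147 and a limma adjusted p of 0.33. With DESeq2 the adjusted p was 0.13, and in limma without LF/LCL replicate 2 the unadjusted p was 0.0667. MUC16 and MUC20 were the pair of members with the most similar profile, with a root mean square difference of 0.204 on the log2 scale after each was centred on its own mean over the 5 libraries. They differed in which cow was highest, SF/SCL replicate 3 for MUC16 and SF/SCL replicate 2 for MUC20.

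MUC1 (ENSBTAG00000017104), the mucin found on most glandular and luminal epithelia and a ligand of galectin-3, had 1738 and 994 normalized reads in LF/LCL replicates 1 and 2. It had 1277, 2316 and 2260.1 in SF/SCL replicates 1, 2 and 3. The SF/SCL cows with high values were replicates 2 and 3, while SF/SCL replicate 1 lay between the LF/LCL cows, so that the groups overlapped. The means were 1366 ± 526 (SD, n = 2) and 1951 ± 585 (SD, n = 3). The log2 fold change was -0.52 ± 0.35 (SE), with a 95% interval from -1.39 to 0.35 and a limma adjusted p of 0.627. This is about the size of the MUC16 difference, but the SD within groups was 0.515 on the log2 scale against 0.196 for MUC16. Without SF/SCL replicate 1 the log2 difference was -0.80 with an unadjusted p of 0.0367, and without LF/LCL replicate 2 it was -0.12 with 0.77.

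MUC4 (ENSBTAG00000014721), a membrane mucin whose extracellular part holds growth factor-like domains and which binds the receptor ERBB2, had 69.2 and 587 normalized reads in LF/LCL replicates 1 and 2. It had 138, 289 and 161 in SF/SCL replicates 1, 2 and 3. The lowest and the highest library of the series were both LF/LCL, 8.48 times apart, and all SF/SCL libraries lay between them. Counting error does not reach that far, as the 2 values rest on 59 reads (95% Wilson interval for the share of reads 0.000341% to 0.000567%) and on 606 reads (0.00346% to 0.00406%). The means were 328 ± 366 (SD, n = 2) and 196 ± 81.3 (SD, n = 3). The log2 fold change was 0.12 ± 0.89 (SE), with a 95% interval from -2.09 to 2.33 and a limma adjusted p of 0.978. The SD within groups was 1.33 on the log2 scale, and only 2.91% of all genes tested had a larger one. A direction cannot be given, since the log2 difference was 1.65 without LF/LCL replicate 1 and -1.41 without LF/LCL replicate 2. The edgeR quasi-likelihood fit, which averages reads and not log values, gave 0.75 with an adjusted p of 0.781.

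MUC4 and MUC20 are direct neighbours in the RefSeq gene table of the Bos indicus assembly NIAB-ARS_B.indTharparkar_mat_pri_1.0, with no protein-coding gene between them. Their profiles were unlike, with a root mean square difference of 1.08 on the log2 scale. In the LF/LCL cows MUC20 had nearly equal values while MUC4 differed by 8.48 times. On either side of MUC1 the same table lists THBS3, a thrombospondin of the matrix, and TRIM46. THBS3 had 247 and 367 normalized reads in LF/LCL against 550, 577 and 745 in SF/SCL, with a log2 fold change of -1.03 ± 0.22 (SE), an unadjusted p of 0.00345 and a limma adjusted p of 0.248. TRIM46 had 1.07 to 8.21 normalized reads and was below the filter. ANO3, a neighbour of MUC15, overlapped between the groups with a log2 fold change of -0.51 ± 0.32 (SE) and a limma adjusted p of 0.6, while MUC15 was at 0.96. SLC5A12, on the other side of MUC15, had at most 1.04 normalized reads. OVGP1 was not matched by symbol in that table. A link between the levels of neighbours was not tested. The neighbours were looked up after the values were seen.

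MUC15 (ENSBTAG00000027126), a short membrane mucin that was described from milk fat globules, had 21.1 and 7.74 normalized reads in LF/LCL replicates 1 and 2. It had 6.24, 8.55 and 4.29 in SF/SCL replicates 1, 2 and 3. The value of LF/LCL replicate 1 stands above the other 4, and LF/LCL replicate 2 lies within the SF/SCL range. The values rest on 18 reads in LF/LCL replicate 1 and on 4 to 11 reads in the others. The exact Poisson interval of the 18 reads was 10.7 to 28.4, and that of the 8 reads in LF/LCL replicate 2 was 3.45 to 15.8, so that these intervals overlap. The intervals of SF/SCL replicate 1, 2.2 to 13.1, and SF/SCL replicate 2, 5.49 to 19.7, also overlapped that of LF/LCL replicate 1. Only the interval of the 4 reads in SF/SCL replicate 3, 1.09 to 10.2, did not reach it. The means were 14.4 ± 9.45 (SD, n = 2) and 6.36 ± 2.13 (SD, n = 3). The log2 fold change was 0.96 ± 0.69 (SE), with a 95% interval from -0.72 to 2.63 and a limma adjusted p of 0.651, and it was 0.29 without LF/LCL replicate 1.

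**Figure D2:**
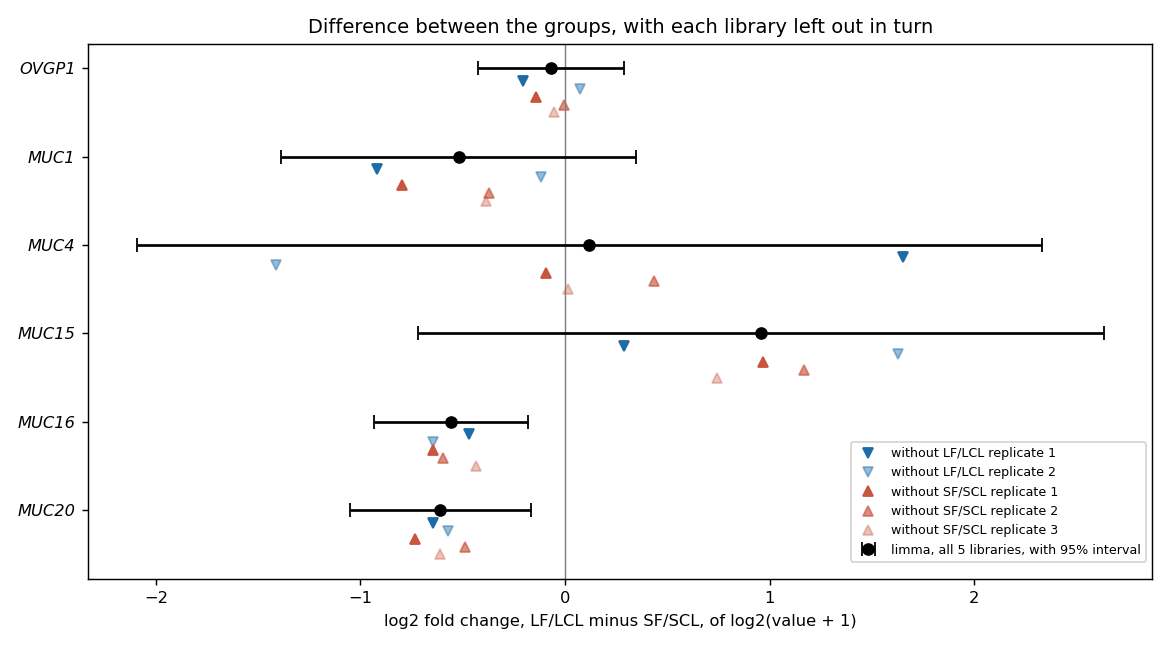
Log2 fold change of each gene, LF/LCL minus SF/SCL, on the log2(value + 1) scale. Black points are the limma values from all 5 libraries with their 95% intervals, and triangles are the fits that leave out 1 library (blue, LF/LCL; red, SF/SCL). The intervals of MUC16 (-0.94 to -0.18) and MUC20 (-1.05 to -0.17) lie below 0, and MUC4 changes sign with the LF/LCL library that is left out.

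Marker lists of the cell types in the wall were read beside the members. The ciliated list had 16 tested genes, all 16 with a lower mean log2 value in LF/LCL against 12 with an unadjusted p under 0.05, against 11.5% of all genes. Its median log2 fold change was -0.44, and its summed level was 69138 and 86345 normalized reads in LF/LCL against 100564 to 105815 in SF/SCL. These groups were apart in the same direction as MUC16 and MUC20. The sums were also apart without TPPP3, the gene that added most to their difference. When every library was scaled to the ciliated list, an alternative added after seeing the data, MUC16 was at -0.06 with an unadjusted p of 0.766 and MUC20 at -0.11 with 0.626, while the median of all genes moved to 0.50. Relative to that median they were at -0.56 and -0.62. Such scaling shifts the fold change of every gene by the same amount, so the distance to the median stays that of the main fit. It therefore cannot show whether the difference goes with the ciliated list.

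The general epithelial list was mixed. Of its 15 tested genes 9 were higher in LF/LCL against 6 in SF/SCL, with a median of 0.22, and the summed level was 51995 and 52105 in LF/LCL against 46103 to 48619 in SF/SCL. EPCAM, an adhesion molecule of epithelial cells, had 16806 and 14311 normalized reads in LF/LCL against 10534 to 13863 in SF/SCL (limma unadjusted p 0.0429, adjusted p 0.42). CLDN4 and KRT7 were the others under 0.05 and higher in LF/LCL. Their log2 fold changes were 1.20 ± 0.32 (SE, limma unadjusted p 0.00925) and 0.45 ± 0.18 (0.0443). KRT19, a keratin and the gene with the smallest p of the list, went the other way, with 3516 and 3166 in LF/LCL against 5805, 5066 and 6749 in SF/SCL (log2 fold change -0.81 ± 0.15, SE, unadjusted p 0.00138, adjusted p 0.21). Without EPCAM the sums overlapped, at 35189 and 37794 in LF/LCL against 34756 to 36166 in SF/SCL. Scaled to this list, MUC16 was at -0.69 (unadjusted p 0.00348, adjusted p 0.189) and MUC20 at -0.74 (unadjusted p 0.00455, adjusted p 0.202), with the median of all genes at -0.13. The secretory epithelial list had 5 of 8 tested genes higher in LF/LCL, 3 of them at an unadjusted p under 0.05, and a median of 0.10. Its summed level was 15651 and 15768 in LF/LCL against 7816 to 9973 in SF/SCL. WFDC2, a secreted protein of the protease inhibitor family, had 9259 and 7479 normalized reads in LF/LCL against 2278, 3769 and 1811.5 in SF/SCL. Without WFDC2 the LF/LCL mean of the sum was 1.22 times that of SF/SCL, in place of 1.82 times with it. The mean log2 level over the list's genes overlapped between the groups, since SF/SCL replicate 2 was the highest library. CRISP3, a gene of this list, had 152 reads in that library and 0 to 3 reads in each of the others. The mean without CRISP3 was not computed. Sums without 1 gene were added after seeing the data.

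Of the other layers, the smooth muscle list had all 9 tested genes higher in LF/LCL, 8 of them at an unadjusted p under 0.05, with a median of 1.47 and a summed level of 56335 to 111521 in LF/LCL against 14344 to 37964 in SF/SCL. The stromal fibroblast list had 8 of 9 genes higher in LF/LCL with a median of 0.84, and its sums overlapped, at 37022 to 89281 and 23060 to 51129. The mesothelial list had 4 of 6 genes higher in SF/SCL with a median of -0.03 and sums of 11213 to 18005 and 15766 to 21794. Without MSLN the LF/LCL mean of the sum was 0.95 times that of SF/SCL, in place of 0.741 times with it. CALB2 was at 0 in 3 libraries. The endothelial list had 4 of 7 genes higher in LF/LCL, 0 of them at an unadjusted p under 0.05, with a median of 0.10 and sums of 3782 to 6295 and 4742 to 7328. KDR, a receptor for vascular endothelial growth factor and the 1 endothelial gene at an unadjusted p under 0.05, was higher in SF/SCL (log2 fold change -0.75 ± 0.16, SE, unadjusted p 0.00312, adjusted p 0.248). Without KDR the LF/LCL mean of the endothelial sum was 1.13 times that of SF/SCL, in place of 0.837 times with it. The immune list had 9 of 11 genes higher in LF/LCL, 5 of them at an unadjusted p under 0.05, with a median of 0.44 and sums of 2565 to 3414 and 1627 to 2729. The blood list had 2 tested entries, both named HBA, which ran from 7.51 to 280.3 normalized reads and overlapped between groups. No gene of any of these lists had an adjusted p under 0.05 with limma. The part of cell composition in the values of the members was not tested.

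**Figure D3:**
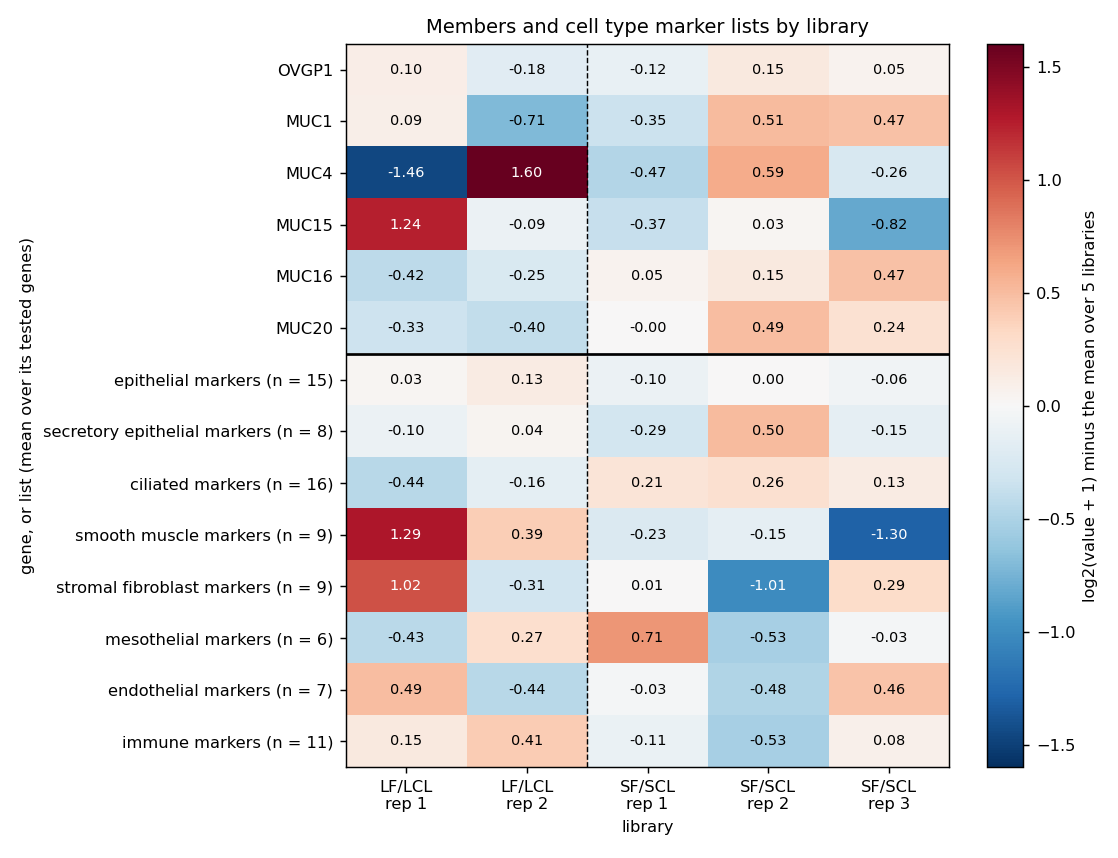
Log2(value + 1) of each member, and the mean over the tested genes of each cell type list, minus its mean over the 5 libraries (columns; red above, blue below the mean). MUC16 and MUC20 are below their means in both LF/LCL libraries, as is the ciliated list at -0.44 and -0.16, while MUC4 is at -1.46 and 1.6 in the 2 LF/LCL libraries and MUC15 at 1.24 in LF/LCL replicate 1.

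Other mucins were sought by a list of 18 symbols, of which 9 were matched. MUC13 and MUC19 had no read in any library, which allows up to 3 reads per library (2.33 to 3.52 normalized reads). Of the 7 tested, 5 were higher in LF/LCL against 2 in SF/SCL, with a median log2 fold change of 0.58. An unadjusted p under 0.05 was found for 1 in each direction. MCAM, a mucin-like adhesion molecule of vessels and smooth muscle, had 2066 and 1049 normalized reads in LF/LCL against 764, 747 and 669 in SF/SCL (unadjusted p 0.0113, adjusted p 0.313). PODXL, the sialomucin podocalyxin, had 1602 and 1278 in LF/LCL against 2239.5, 1778 and 2643 in SF/SCL (unadjusted p 0.0186, adjusted p 0.349). CD164, a sialomucin of endosomes and the cell surface, had 4058 ± 370.2 (SD, n = 2) and 4030 ± 367 (SD, n = 3), with a log2 fold change of 0.01. MUC3A had 23 reads in LF/LCL replicate 2 and 0 to 2 reads in each of the others. MUC5B, the main gel-forming mucin of airway and cervix, had 4 to 12 reads per library, and EMCN, the endothelial sialomucin endomucin, had a log2 fold change of 0.58 ± 0.39 (SE) with an adjusted p of 0.62.

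MUC12, chosen for mention after its values were seen, differed within the SF/SCL group. It had 736 and 919 normalized reads in SF/SCL replicates 1 and 3, none in SF/SCL replicate 2, and 5.86 and 31.9 in LF/LCL replicates 1 and 2. Its log2 fold change of -2.55 ± 3.09 (SE) had a limma adjusted p of 0.808.

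The chitinase family to which oviductin belongs by its sequence had 4 of 6 listed symbols matched, and all 4 were tested. CHID1, a chitinase domain protein of lysosomes, had 2281 and 2442 normalized reads in LF/LCL against 2913, 2673 and 3098 in SF/SCL, with a log2 fold change of -0.29 ± 0.11 (SE), an unadjusted p of 0.0343 and an adjusted p of 0.397. CHI3L1, a chitin-binding glycoprotein without enzyme activity, had 1525 ± 74.9 (SD, n = 2) and 1552 ± 412 (SD, n = 3), with a log2 fold change of 0.00. CHIA, the acidic chitinase, and CHI3L2 had log2 fold changes of -0.18 ± 0.55 (SE) and 0.05 ± 1.35, from 19.3 to 53.0 and from 1.55 to 31.0 normalized reads. The median of the 4 was -0.09.

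The enzymes that build O-linked sugars on mucins were listed with 32 symbols, of which 24 were matched and 21 tested. They split evenly, with 10 higher in LF/LCL, 11 higher in SF/SCL and a median of -0.01. An unadjusted p under 0.05 was found for 3 in each direction, together 28.6% of those tested against 11.5% of all genes, and for 0 after adjustment. ST3GAL1, which caps the core O-glycan with sialic acid, had 359 and 405 normalized reads in LF/LCL against 568, 718 and 547 in SF/SCL, with a log2 fold change of -0.67 ± 0.16 (SE), an unadjusted p of 0.00631 and an adjusted p of 0.294. GALNT3, which adds the first sugar, had 1061 and 1089 in LF/LCL against 1345, 1902 and 1392 in SF/SCL (unadjusted p 0.0241, adjusted p 0.363). B3GNT3, which extends the core, had 142 and 215 in LF/LCL against 97.7, 56.0 and 97.7 in SF/SCL (unadjusted p 0.0218, adjusted p 0.359). GALNT6 and ST6GALNAC6, the enzymes of the list with the most reads, had log2 fold changes of -0.09 ± 0.17 (SE) and -0.13 ± 0.11.

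Receptors, ligands and sheddases that membrane mucins are known to work with were listed with 13 symbols, and 13 entries were tested. Of these 10 were higher in LF/LCL against 3 in SF/SCL, with a median of 0.12. LGALS3 (ENSBTAG00000002326), which encodes galectin-3, had 1253 and 1049 normalized reads in LF/LCL against 672, 616 and 784 in SF/SCL. Its log2 fold change of 0.74 ± 0.15 (SE) had an unadjusted p of 0.0025 and an adjusted p of 0.236, and it was the 1 entry of the list under an unadjusted 0.05. A further LGALS3 entry had at most 4 reads per library. MSLN (mesothelin), the surface protein that MUC16 binds, had 2400 and 9383 in LF/LCL against 10869, 8244 and 12483 in SF/SCL. LF/LCL replicate 1 was low and LF/LCL replicate 2 lay within the SF/SCL range, so that the groups overlapped (log2 fold change -1.13 ± 0.56, SE, adjusted p 0.509). ERBB2 and MET, the receptors that bind MUC4 and MUC20, had log2 fold changes of 0.10 ± 0.10 (SE) and 0.04 ± 0.21. The catenins CTNND1 and CTNNB1, which bind the MUC1 tail, had 0.30 ± 0.15 (SE) and 0.18 ± 0.15. The sheddases ADAM10, ADAM17 and MMP14 had 0.15 ± 0.11 (SE), 0.07 ± 0.17 and 0.28 ± 0.35.

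A list of 15 genes of mucous secretory cells had 11 tested genes, 3 higher in LF/LCL against 8 in SF/SCL, with a median of -0.22 and 0 at an unadjusted p under 0.05. SPDEF, the transcription factor that drives goblet cells, stood at 5999 ± 315 (SD, n = 2) normalized reads for LF/LCL against 6929 ± 1019.8 (SD, n = 3) in SF/SCL. AGR2, the disulfide isomerase needed to fold gel-forming mucins, had 1416 and 1544 in LF/LCL against 2519, 1595 and 3105 in SF/SCL, which do not overlap (log2 fold change -0.65 ± 0.28, SE, unadjusted p 0.0584). FOXA2, a forkhead factor of glandular epithelia, had 205 and 320.4 in LF/LCL against 350.4, 565 and 367 in SF/SCL (log2 fold change -0.70 ± 0.29, SE, unadjusted p 0.0511). FOXA1 had 0.68 ± 0.41 (SE) and BCAS1 -0.12 ± 0.13. TFF1 and TFF2, trefoil peptides of gastric mucus, had no read in any library.

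The steroid receptor list was included because oviductin is known to respond to estrogen. Of its 6 tested genes 5 were higher in LF/LCL against 1 in SF/SCL, with a median of 0.31, and ESR1 alone had an unadjusted p under 0.05. ESR1, the main estrogen receptor of the oviduct, had 4347 and 3578 normalized reads in LF/LCL against 2907, 2248 and 2984.5 in SF/SCL (unadjusted p 0.015, adjusted p 0.33). Values of 1.36 ± 0.58 (SE) on the log2 scale were found for ESR2 and 0.41 ± 0.19 for PGRMC1, a progesterone-binding membrane protein, with adjusted p of 0.455 and 0.477. PGR, the progesterone receptor and the gene of the list that was higher in SF/SCL, had -0.41 ± 0.22 (SE) with an adjusted p of 0.537. The groups did not overlap for ESR1, as for 30.1% of all genes tested, and they overlapped for OVGP1. A link between the levels of ESR1 and OVGP1 was not tested.

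**Figure D4:**
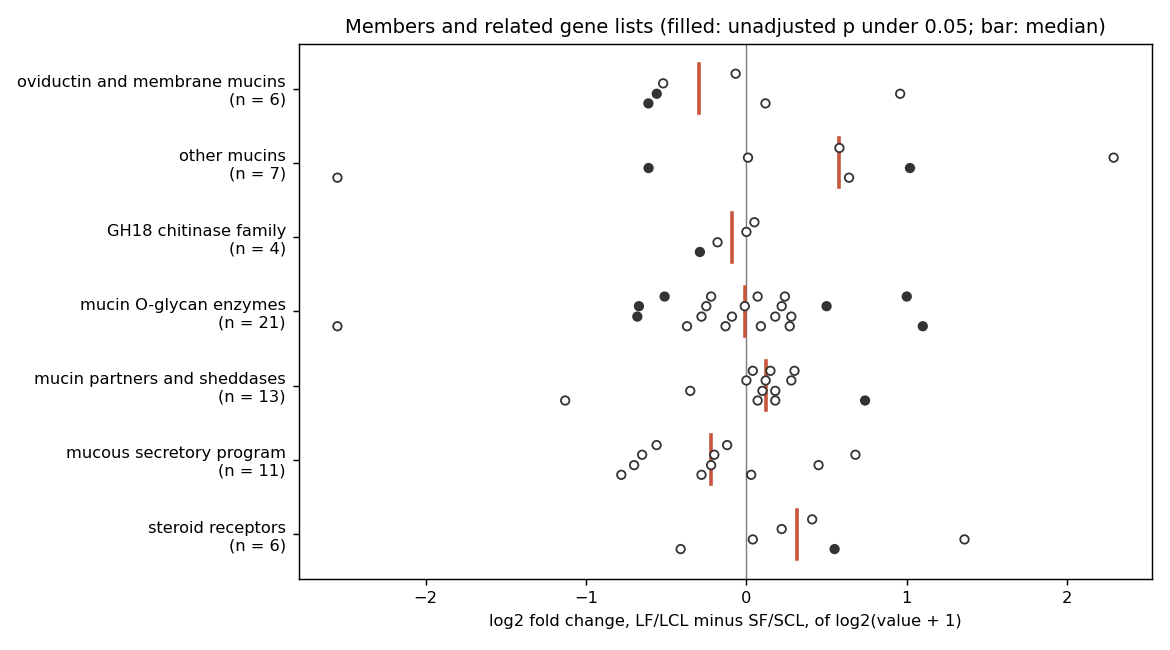
Log2 fold change, LF/LCL minus SF/SCL, on the log2(value + 1) scale, of the 6 members and of the tested genes of each related list. Each point is a gene, filled points have an unadjusted p under 0.05, and bars are medians, from -0.29 for the members to 0.58 for the other mucins and -0.01 for the O-glycan enzymes.

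The genes whose profile was most like that of each member were sought among 11947 genes with a symbol and a mean of at least 50, by the root mean square difference of the centred log2 values over the 5 libraries. For OVGP1 these were MTERF (0.013), HOXA3 (0.030) and ISCU (0.031). For MUC16 they were TUBB2B (0.041), SLC25A36 (0.045) and RRAGB (0.047), and for MUC20 CENPJ (0.034), SFT2D3 (0.049) and RASA2 (0.052). For MUC1 they were PLA2G10 (0.090), 5_8S_rRNA (0.122) and IFT122 (0.133). For MUC15 they were NDE1 (0.106), MYL9 (0.145) and SLC2A4 (0.146). MUC4 had no close match, the nearest being C20orf201 (0.387), NQO1 (0.408) and SALL4 (0.421), all with their lowest value in LF/LCL replicate 1 and their highest in LF/LCL replicate 2. With 5 libraries and so many genes, close matches are found for any profile of small range, and these names are a description only.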

How the data were processed

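PolyA RNA of ampulla tissue from 5 cows was sequenced as read pairs. Per the submitters' processing notes and methods, the authors cleaned reads with seqyClean, mapped them with TopHat2 2.0.8 and Bowtie2 2.1.0 to the masked UMD cattle assembly, counted uniquely mapped reads per Ensembl gene with HTSeq 0.5.4p2, and divided the counts by DESeq 1.12.1 size factors. The deposited values are this normalized signal. Reads from tandem repeats of mucins may be lost by unique mapping, and the use of strand was not stated. Whole reads were recovered by dividing by the value of 1 read in each library. The main fit was limma 3.58.1 (lmFit, eBayes with trend and robust) on log2(value + 1) for genes with a mean over 5, two-sided, without covariates, with Benjamini-Hochberg adjustment over all genes tested. P-values rest on the spread between these cows, with the variance of each gene moderated by that of other genes. Without trend and robust, limma gave unadjusted p-values of 0.0298 for MUC16 and 0.0243 for MUC20. The edgeR 4.0.16 quasi-likelihood test, DESeq2 1.42.0 and limma-voom were run on recovered reads. These 3 tools and limma were also run on simulated data, with the same spread between libraries set for all genes. Genes of these libraries differ in spread, so that run does not show the error rates of the tools here. Named genes are the 6 members, the 3 genes with the smallest p and the 2 with the highest mean of each related list, and the 3 genes closest in profile to each member. Other genes of the lists were chosen for mention after their values were seen. Lists were matched by symbol, and CDH1, PECAM1 and SLPI were among the symbols not matched. The members and lists were chosen with earlier results of these data known.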

Additional observations from a re-analysis of the deposited data

How the results depend on the processing

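The number of members with an adjusted p under 0.05 was 0 under all 17 alternatives. These were 3 other tests, plain estimation, 2 pseudocounts, 2 filters, 4 scalings and leaving out each library, where a lone LF/LCL library was assumed to vary like the other group (from 0 to 0 members). MUC1, MUC15, MUC16 and MUC20 kept their direction in all 17, with MUC1 at -0.02 and MUC16 at -0.06 under ciliated marker scaling. For MUC16 and MUC20, leaving out 1 library could not change the direction, since their groups did not overlap. MUC16 ran from -0.65 to -0.43 and MUC20 from -0.73 to -0.49 across the fits without 1 library, with unadjusted p up to 0.0659 (MUC16, without LF/LCL replicate 1) and 0.0667 (MUC20, without LF/LCL replicate 2). Leaving out 1 SF/SCL library gave 2 to 3 members at an unadjusted p under 0.05. MUC16 and MUC20 were always among them, and MUC1 was added only without SF/SCL replicate 1. In each of these fits the share of all genes at that p was below the 11.5% of the main fit. The members at that p were not the same pair where a single LF/LCL library was left. MUC4 then took the place of MUC16 or MUC20, with log2 differences of opposite sign. These were 1.651 without LF/LCL replicate 1 and -1.414 without LF/LCL replicate 2. Leaving out any 1 library gave 2 to 5 members without overlap. There were 5 without LF/LCL replicate 1 and 4 without LF/LCL replicate 2, where a single library stands for the group. A gene is free of overlap more readily with fewer libraries. The share of all genes without overlap was not computed in these fits, so the counts cannot be set against the 30.1% of the main fit. With ciliated marker scaling, added after seeing the data, which moved the median of all genes to 0.50, the count at an unadjusted p under 0.05 was 0 and OVGP1 went to 0.431. OVGP1 ran from -0.207 to 0.072 without 1 library (0.072 without LF/LCL replicate 2). MUC4 went to -0.013 with epithelial marker scaling, and its range without 1 library was -1.414 to 1.651, the first when LF/LCL replicate 2 was left out and the last when LF/LCL replicate 1 was, with -0.094 without SF/SCL replicate 1. Over all genes, DESeq2 called 460 and ciliated marker scaling 1357 at an adjusted p under 0.05, against 0 in the limma fit and 0 with edgeR. Of the genes with an unadjusted p under 0.05, 49.0% were higher in LF/LCL, and 39.5% with library total scaling, 19.5% with epithelial and 98.2% with ciliated marker scaling. No paired analysis was possible because the labels give each library its own animal number and no number shared between groups. MUC15 had the fewest reads of the 6, with 4 to 18 per library.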
